A study of Mus musculus with 7 samples.

Results

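App, Aplp2, Apbb1, Agrn, Lrp8 and Dab1 were followed through the splicing tables of cultured mouse cortical neurons. The 6 genes were chosen by name, and every row of the deposited tables that carries one of these symbols was taken: 61 of 42150 rows. Those rows describe 35 distinct splicing events, of which 21 had coordinates that occur once in each replicate table and could be matched, and 19 of the 21 held enough reads of both forms to be tested. The neurons came from wild-type ICR embryos of day 16 and were treated on culture day 11. The 2 KCl libraries came from cultures held in buffer containing 50 mM KCl, a depolarizing stimulus, during 10 min and harvested 24 h later. The 2 control libraries came from cultures handled in the same way with NaCl in place of KCl. The labels do not say whether libraries of a group are separate cultures, so the p-values cover the spread between these libraries alone, which may be technical. H3K9me3, a histone mark of silenced chromatin, was profiled in hippocampus of wild-type C57BL/6 mice aged 3 months. The 2 enriched libraries came from mice housed in an enriched cage during 24 h and returned to a home cage during 1 week, and the single other library came from mice of the home cage.

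App codes for the amyloid precursor protein, a membrane protein that secretases cut into a shed ectodomain, a small peptide and a cytoplasmic tail, and Aplp2 codes for a close relative. Both are spliced alternatively at a Kunitz protease-inhibitor domain and, nearer the membrane, at a short exon whose absence creates an attachment site for chondroitin sulfate. For App, the form without the short exon is known from glia and other non-neuronal cells. Apbb1 codes for Fe65, an adaptor that binds the cytoplasmic tail of App. Agrn codes for agrin, an extracellular proteoglycan that clusters acetylcholine receptors at the nerve-muscle synapse only when neurons include short exons at its Z site. Lrp8 codes for a receptor of the secreted protein reelin, and Dab1 for the adaptor that is phosphorylated when reelin binds; this pathway places neurons in the cortical layers.

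Read totals over all rows of a table lay between 3566066 and 5385345 per RNA library. Cell type markers differed between the groups. The level of a gene was read from its best-covered event, as reads of both forms scaled to library depth (CPM, with libraries adjusted by the trimmed mean of M values). Of 14 neuron markers 6 were measured (Gad1, Map2, Rbfox3, Snap25, Stmn2 and Syt1), and their summed level was 532 and 2178 CPM in the KCl libraries, against 6862 and 6659 CPM in the control libraries. All 6 were lower in both KCl libraries than in both control libraries, a separation in this direction that 21.2% of all genes showed. The 6 measured of 12 oligodendrocyte-lineage markers were all higher, with 2003 and 1099 CPM in KCl against 322 and 342 CPM in control, a separation in this direction that 22.1% of all genes showed. The 3 measured of 8 mesenchymal and vascular markers were all higher too, with 2902 and 2240 CPM in KCl against 431 and 517 CPM in control. The 5 measured of 9 astrocyte markers summed to 4135 and 3061 CPM in KCl and to 2978 and 2309 CPM in control, with 3 of the 5 separated. The 4 measured of 7 progenitor markers summed to 612 and 688 CPM in KCl and to 198.5 and 391 CPM in control, with 2 of the 4 separated. Of 7 microglia markers 0 were measured. No marker passed edgeR's quasi-likelihood test after Benjamini-Hochberg adjustment over all genes, in which the smallest adjusted p of any gene was 0.352. In such bulk libraries fewer neurons and less RNA per neuron cannot be told apart. The part of these marker differences in the splicing values below was not tested.

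**Figure D1:**
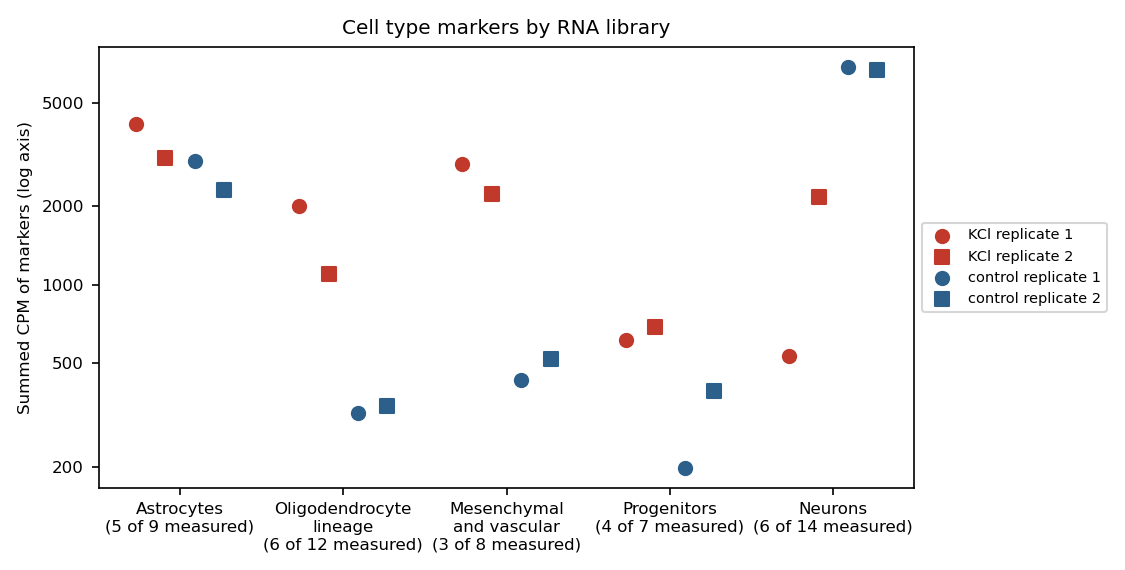
Summed level of the measured markers of 5 cell types (CPM of best-covered events, log axis), with 1 point per RNA library; red marks KCl and blue control, circles replicate 1 and squares replicate 2. The neuron markers sit at 532 and 2178 CPM in KCl, below 6862 and 6659 CPM in control, and the oligodendrocyte and mesenchymal markers sit higher in both KCl libraries.

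The single App event of the tables is a 54-base cassette exon on chromosome 16 (84971408 to 84971461, mm10, minus strand), which holds 18 whole codons and lies 91.6% of the way along the gene from its 5′ end. Its size and place are those of the short exon next to the membrane-spanning part described above. Skipping reads made up 10.9% of the reads in KCl replicate 1 (31 of 285) and 6.10% in KCl replicate 2 (40 of 656), against 1.11% in control replicate 1 (9 of 814) and 0.964% in control replicate 2 (11 of 1141). The 95% Wilson intervals, which cover counting error only, were 7.77% to 15.0% and 4.51% to 8.20% in the KCl libraries, and 0.583% to 2.09% and 0.539% to 1.72% in the control libraries. Every KCl library thus lay above both control libraries beyond counting error, and KCl replicate 1 had the highest share. The inclusion read share, which sets inclusion reads against all reads of the event and is not corrected for the length of either form, averaged 91.5% ± 3.38 in KCl and 98.97% ± 0.10 in control (SD, n = 2 each). The log2 odds ratio of inclusion was -3.07 (SE 0.73), so the odds of skipping were 8.41 times as high in KCl. edgeR's quasi-likelihood test over 10088 events gave an unadjusted p of 0.000451, which ranked 36, and an adjusted p of 0.124, so the event did not pass. The protease-inhibitor exon of App was not analysed here.

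Aplp2 has both kinds of exon in the tables. Its 36-base cassette exon (chromosome 9, 31156190 to 31156225, minus strand, 12 codons) lies 89.3% of the way along the gene and has the size of the short exon whose absence opens the chondroitin sulfate site. The inclusion read share was 36.2% and 52.6% in the KCl libraries (89 of 246 and 300 of 570 reads), against 63.8% and 66.4% in the control libraries (194 of 304 and 489 of 736 reads). Both KCl libraries were below both control libraries, as for the App exon, and KCl replicate 1 was again the lowest. The log2 odds ratio was -1.22 (SE 0.64; edgeR unadjusted p 0.0719, adjusted p 0.579).

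The 168-base exon of Aplp2 (31167561 to 31167728, 56 codons) has the size of the Kunitz protease-inhibitor exon. Inclusion reads were the majority in every library: the inclusion read share was 89.97% and 92.7% in KCl, against 92.7% and 94.97% in control, on 2141 to 2745 reads. The groups came within 0.1 percentage points of each other without overlapping. The log2 odds ratio was -0.54 (SE 0.65; edgeR adjusted p 0.923). Exons of Aplp2 of 75 and 159 bases were listed in replicate 1 alone and one of 113 bases in replicate 2 alone, each with at most 1 skipping read per library.

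**Figure D2:**
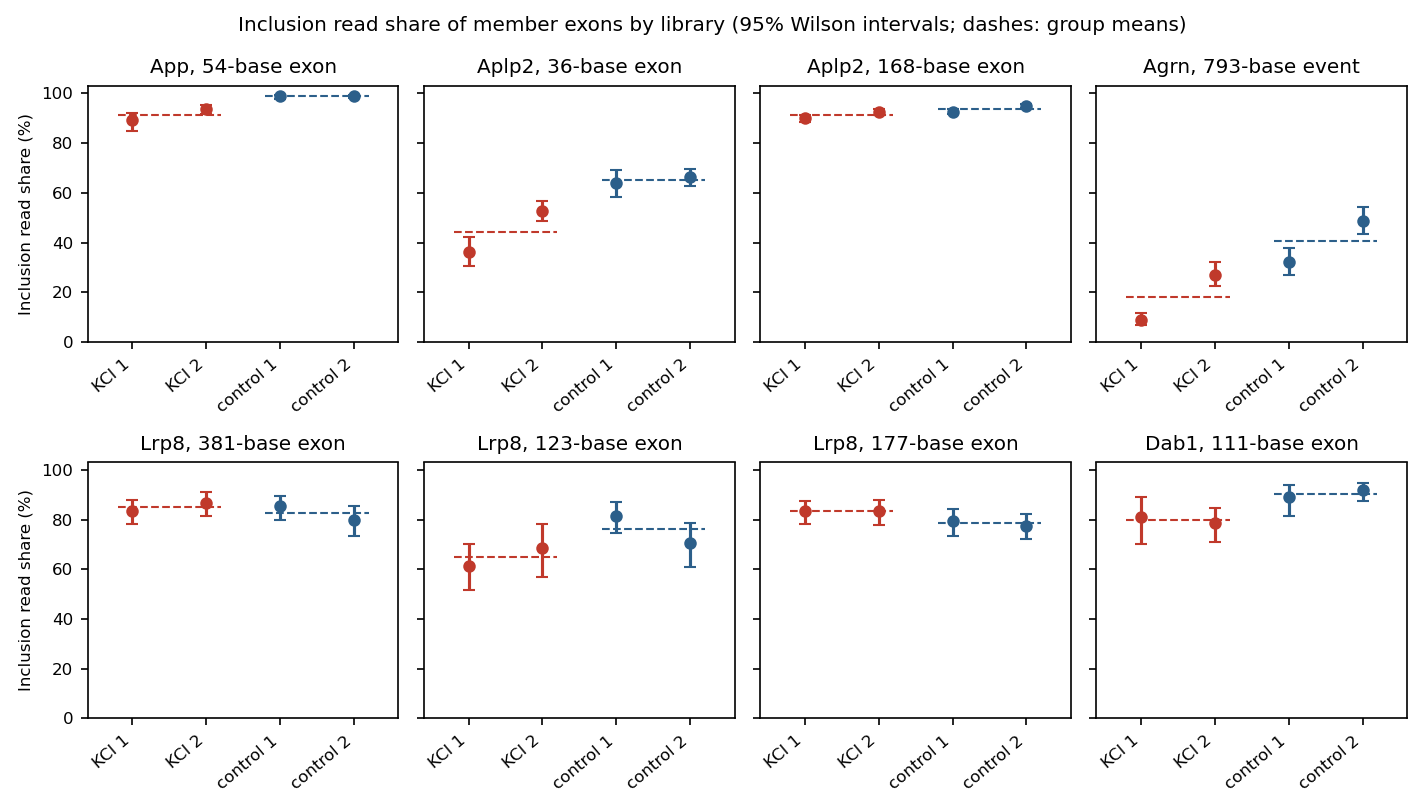
Inclusion read share (%) of 8 member events, with 1 point per library, 95% Wilson intervals and dashes at the group means; KCl libraries are red and control libraries blue. The short exons of App and Aplp2, the 793-base event of Agrn and the 111-base exon of Dab1 sit lower in both KCl libraries, as does the 123-base exon of Lrp8; the 177-base exon of Lrp8 sits higher, and its 381-base exon overlaps between the groups.

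Apbb1 has an alternative 3′ splice site event listed with an exon of 419 bases (chromosome 7, 105565533 to 105565951, minus strand). Its inclusion read share was 4.96% and 29.3% in KCl, against 17.2% and 58.5% in control. The groups overlapped, since the replicate 2 libraries lay above the replicate 1 libraries within each group. Its log2 odds ratio was -1.83 (SE 0.98; edgeR adjusted p 0.592), and leaving out single libraries moved it from -3.34 (without KCl replicate 2) to -0.36 (without KCl replicate 1). A 13-base exon (105568619 to 105568631), which is no whole number of codons, had 80.0% and 54.8% in KCl on 10 and 31 reads, against 66.7% and 48.1% in control on 135 and 131 reads. Reads at this exon were thus fewer in both KCl libraries, while the shares overlapped (log2 odds ratio 0.36, SE 0.86). A 115-base exon (105575430 to 105575544) was almost always skipped, with an inclusion read share of 0.870% and 2.14% in KCl against 0.832% and 0.441% in control (edgeR adjusted p 0.893). Rows of a 40-base exon that contains the 13-base exon, and of a 735-base exon, share coordinates and were not tested. In each replicate a row of the 40-base exon holds the same inclusion and skipping reads as the 13-base exon. The reads given for the 13-base exon thus cannot be assigned to it rather than to the 40-base exon. The 735-base exon was included in at least 99.6% of reads in each of its rows.

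Agrn has the most matched events of the 6 genes, 8 in number. A 24-base exon (chromosome 4, 156168546 to 156168569, minus strand) and a 33-base exon downstream of it (156167777 to 156167809) have the sizes of the neural Z exons. The tables also hold a 793-base event (156167777 to 156168569) whose ends are the outer ends of this pair and which contains both exons and the intron between them. Its inclusion form took 8.97% of reads in KCl replicate 1 (54 of 602) and 27.1% in KCl replicate 2 (91 of 336), against 32.2% in control replicate 1 (92 of 286) and 48.8% in control replicate 2 (162 of 332). Both KCl libraries were below both control libraries, and the 2 libraries of a group were far apart. The group means were 18.0% ± 12.8 in KCl and 40.5% ± 11.8 in control (SD, n = 2 each). The log2 odds ratio was -1.81 (SE 0.73), which edgeR gave a p of 0.0229 before adjustment and of 0.451 after it. Without KCl replicate 1 it was -0.86, and without KCl replicate 2 it was -2.77.

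The 24-base exon alone had few inclusion reads: 2 and 2 in the KCl libraries, against 4 and 2 in the control libraries. It uses the same skipping reads as the 793-base event, so the pair is not independent. Its log2 odds ratio was -1.62 (SE 1.08; edgeR adjusted p 0.742). The 33-base exon was listed in replicate 2 alone, with 32 inclusion and 2 skipping reads in KCl, against 52 and 0 in control. In the same libraries the 793-base event, which contains this exon, held 245 and 170 skipping reads. The 33-base row does not count those, so it does not give the share of all reads that skip the exon. In the other Agrn events inclusion was close to complete or did not separate the groups. A retained-intron event spanning 678 bases (156173003 to 156173680, which takes in the 128-base exon) had 54.6% and 47.6% in KCl, against 53.8% and 57.2% in control (edgeR adjusted p 0.980). Exons of 128 and 225 bases, and the alternative 5′ splice site event over the same 678 bases, were included in 96.9% to 100% of reads. An 87-base exon was included in 1.82% to 2.26%. A 216-base exon, listed in replicate 1 alone, and a 97-base exon and an alternative 5′ splice site event over the 793 bases, listed in replicate 2 alone, had at most 2 skipping reads per library. A 117-base exon had 0 skipping reads in KCl and 1 in each control library, and was too low in skipping reads to be tested.

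Lrp8 has exons for its ligand-binding part, which is spliced alternatively in the mouse, and one for its cytoplasmic tail. The 177-base exon (chromosome 4, 107870012 to 107870188, plus strand, 59 codons), 90.9% of the way along the gene, has the size of the tail exon through which the receptor binds scaffold proteins of the postsynapse. It was one of 2 tested member events in which both KCl libraries lay higher: the inclusion read share was 83.4% and 83.6% in KCl, against 79.5% and 77.5% in control. The difference is small beside the error of the fit, with a log2 odds ratio of 0.47 (SE 0.62; edgeR adjusted p 0.941). A 123-base exon (107848281 to 107848403, 41 codons) had 61.3% and 68.6% in KCl, against 81.6% and 70.6% in control, a log2 odds ratio of -0.83 (SE 0.70; edgeR adjusted p 0.836). Control replicate 1 stood apart there, and the other 3 libraries were within 10 percentage points of each other. A 381-base exon (107846239 to 107846619, 127 codons) had 83.6% and 86.8% in KCl, against 85.4% and 80.0% in control, so the groups overlapped. An alternative 3′ splice site event listed with an exon of 126 bases, which shares its skipping reads with the 381-base exon, had 28.0% and 30.6% in KCl, against 36.96% and 34.0% in control, on 36 to 50 reads. In replicate 2 alone, the pair of mutually exclusive exons of 123 and 120 bases had 48.8% in KCl and 50.8% in control, and another pair, of 225 and 69 bases, had 77.4% in KCl and 80.6% in control. Exons of 120, 153 and 69 bases, also listed in replicate 2 alone, had 0 skipping reads in KCl and at most 2 in control. Which exon of a pair counts as inclusion was not established.

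Dab1 has a 111-base exon near the 3′ end of the gene (chromosome 4, 104732070 to 104732180, plus strand, 37 codons), 98.9% of the way along its 1125345 bases. The inclusion read share was 81.2% and 78.6% in KCl on 64 and 140 reads, against 89.1% and 91.8% in control on 101 and 220 reads. The groups did not overlap, and libraries of a group lay close together: the means were 79.9% ± 1.89 in KCl and 90.5% ± 1.92 in control (SD, n = 2 each). The log2 odds ratio was -1.30 (SE 0.70; edgeR unadjusted p 0.0785, adjusted p 0.593). A retained-intron event spanning 313 bases and a 66-base exon of Dab1 had 6 to 14 reads and 1 to 4 reads per library, too few to compare.

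Over the 6 genes, 0 of 19 tested events passed edgeR's test at an adjusted p under 0.05, as did 0 of all 10088 events (0%), where the smallest adjusted p was 0.0977. At an unadjusted p under 0.05 there were 2 of 19, the App exon and the 793-base event of Agrn, both with lower inclusion in KCl, beside 9.20% of all events (4.97% lower and 4.23% higher); DESeq2 and limma each put 1 of the 19 there and called 0. Library shares were separated by group in 10 of 19 events, 8 with lower and 2 with higher inclusion in KCl, beside 40.7% of all events (19.5% lower and 21.2% higher). Those with lower inclusion include the 793-base and 24-base events of Agrn, which hold the same skipping reads, so the 19 are not all independent. The median log2 odds ratio was -0.26 over the 19 events and 0.04 over all events. Of the 16 matched cassette exons 12 hold a whole number of codons.

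**Figure D3:**
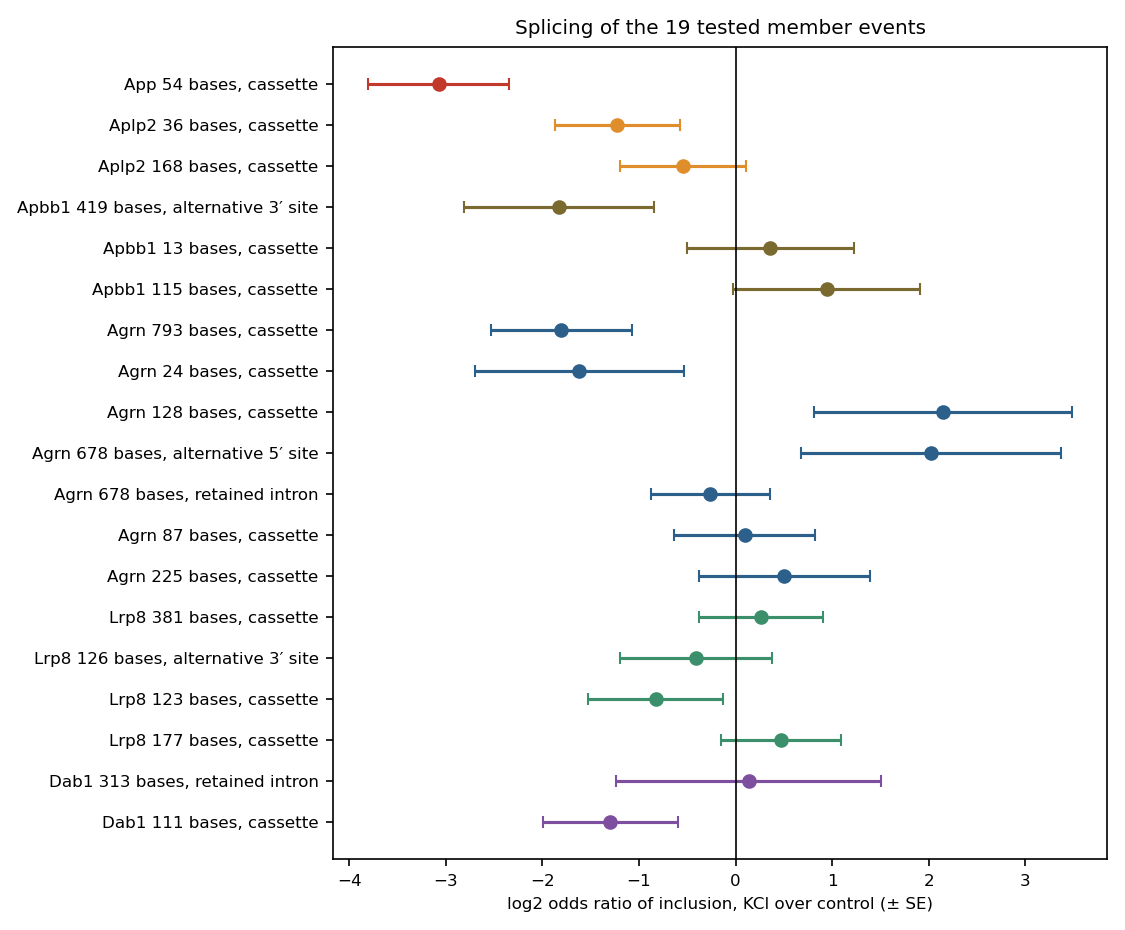
Log2 odds ratio of inclusion, KCl over control (points, with bars of 1 SE from edgeR's quasi-likelihood fit), for the 19 tested events of the 6 genes, coloured by gene. The App exon lies farthest from 0 at -3.07, and 10 of the 19 events lie below 0.

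The authors' deposited table also holds a test within each replicate number, which compares a single KCl library with a single control library. By the authors' deposited table, 1 of the 61 member rows had an FDR under 0.05, beside 2.26% of all rows in replicate 1 and 0.828% in replicate 2. That row is the 36-base exon of Aplp2, with an FDR of 6.91e-05 and a p of 7.13e-07 in replicate 1, against an FDR of 0.900 and a p of 0.0233 in replicate 2, in the authors' deposited table. For the App exon the authors' deposited table gives a p of 0.193 in replicate 1 and of 1 in replicate 2, with an FDR of 1 in both. For the 793-base event of Agrn the p in the authors' deposited table was 1 in both replicates. Within each replicate number, the Wilson intervals of the KCl and control libraries given above for App do not overlap. Those intervals cover counting error only, and how the deposited test weighs the reads is not given. The intervals and the deposited p are thus unlike measures. The authors' deposited table holds a p of exactly 1 in 37 of the 61 rows (60.7%) and in 58.6% of all rows. A p under 0.05 was given to 5 of the 61 rows in the authors' deposited table, beside 5.86% of all rows in replicate 1 and 3.43% in replicate 2. Besides both Aplp2 rows these were, in the authors' deposited table, the 123-base exon of Lrp8 (0.00473, replicate 1), the 111-base exon of Dab1 (0.0116, replicate 2) and the 419-base event of Apbb1 (0.0284, replicate 2).

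App had a lower level in both KCl libraries. Reads at its 54-base exon came to 195 and 371 CPM in KCl, against 567 and 612 CPM in control. The groups did not overlap, and KCl replicate 1 was the lowest. The log2 fold change was -1.06 (SE 0.45), and edgeR's quasi-likelihood test over 6114 genes gave a p of 0.0501 before adjustment and of 0.405 after it. Without KCl replicate 1 the log2 fold change was -0.65, and without KCl replicate 2 it was -1.66. Agrn was the only gene of the 6 with a separation upward, read from its 678-base retained-intron event. That event had 315 and 281 CPM in KCl, against 163 and 248 CPM in control. The log2 fold change was 0.53 (SE 0.41, edgeR adjusted p 0.691). This separation rests on the event chosen. The 225-base exon of Agrn had 410 reads in KCl replicate 2 and 352 in control replicate 1, on read totals of 4666850 and 3566066. Scaled to those totals, that exon was lower in KCl replicate 2 than in control replicate 1. Separation of the groups, shown by 2 of the 6 genes, was shown by 43.2% of all genes (21.2% downward and 22.1% upward).

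The other 4 genes had overlapping groups. Aplp2 had 1509 and 1212 CPM in KCl, against 1772 and 1473 CPM in control, a log2 fold change of -0.25 (SE 0.38). Dab1 had 43.8 and 79.3 CPM in KCl, against 70.4 and 118.1 CPM in control, a log2 fold change of -0.61 (SE 0.50). Lrp8 had 169 and 121 CPM in KCl, against 146 and 138 CPM in control, a log2 fold change of 0.02 (SE 0.41). In Apbb1 the replicate 2 libraries lay below the replicate 1 libraries of both groups, with 315 and 132 CPM in KCl against 419 and 122 CPM in control. That event is the 115-base exon, since the better covered 735-base exon shares coordinates, so the overlap of Apbb1 rests on the 115-base event. In replicate 2, where it is listed once, the 735-base exon had 1955 reads in KCl and 2562 in control. These reads are not scaled to depth, and read totals were 4666850 and 5385345. In replicate 1 its rows had 1821 and 1371 reads in KCl, against 2959 and 2399 in control, on totals of 3643165 and 3566066. The level of this exon was not tested. None of the 6 passed edgeR's test, as did 0 of all 6114 genes (0%), and 0 of the 6 had an unadjusted p under 0.05, beside 12.2% of all genes (7.26% lower in KCl); for App it was under 0.05 with median-of-ratios size factors (0.0490), in DESeq2 (0.0474) and with all events summed (0.0436). Levels of different genes were not compared, because an event's length in reads is not given.

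**Figure D4:**
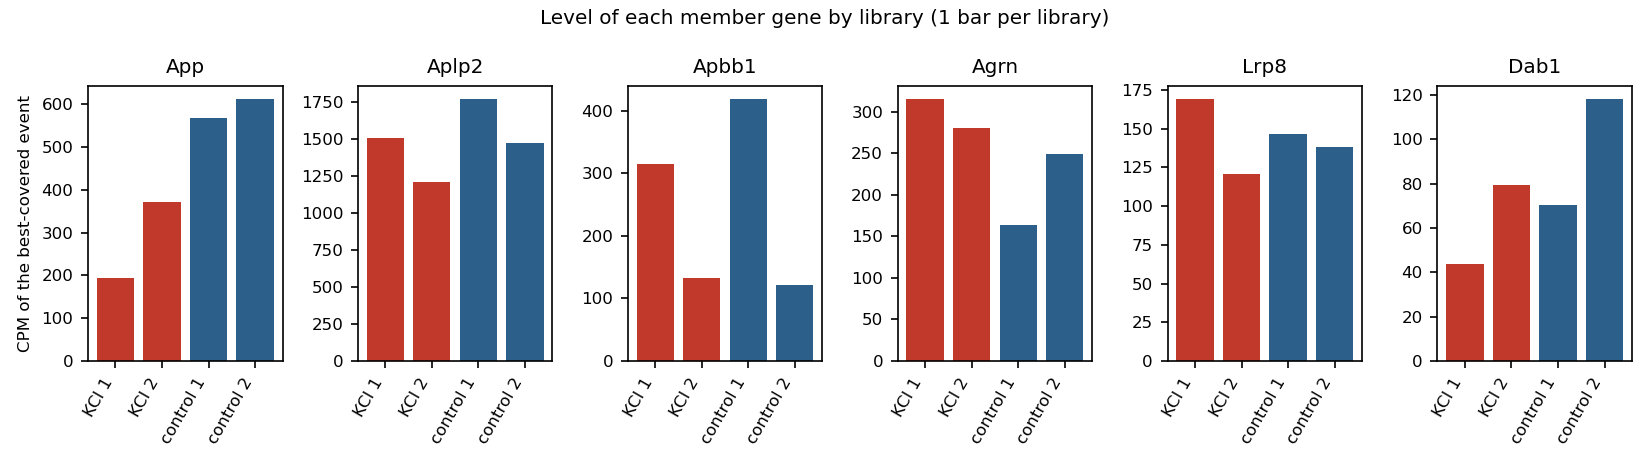
Level of each of the 6 genes in each RNA library, as CPM of its best-covered event; each bar is 1 library, red for KCl and blue for control, and each panel has its own axis from 0. App is lower in both KCl libraries, Agrn is higher in both, and the other 4 overlap.

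Genes whose level followed a member most closely over the 4 RNA libraries were taken as those with the smallest Euclidean distance of mean-centred log2 CPM, among 4752 genes with a mean of at least 20 CPM over the libraries. Snx32 lay nearest to App at 0.07, with 32.2 and 63.4 CPM in KCl against 98.9 and 100.9 CPM in control, followed by Lrrc16b at 0.10. Rabgap1 (0.04) and Ankrd24 (0.05) lay nearest to Aplp2, and Slx4 (0.04) and Enoph1 (0.12) to Dab1. Slc15a4 (0.07) and Nav2 (0.09) lay nearest to Agrn, Rtca (0.07) and Psme3 (0.08) to Lrp8, and Nmt1 (0.16) and Tmem86a (0.18) to Apbb1. With 4 libraries such likeness is a description of these libraries only.

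Other genes of these pathways were taken from lists set by function. Single events and levels named from a list were selected for separated groups and a low p. Their separation thus does not describe that list. Over whole lists, event shares separated downward in KCl in 8 of 30 (App), 2 of 6 (agrin) and 8 of 55 (reelin). They separated upward in 4, 1 and 12, beside 19.5% of all events downward and 21.2% upward. Of 36 further genes of the App family and its processing, 18 had 30 tested events; 0 passed edgeR's test, and 5 were lower and 1 was higher in inclusion at an unadjusted p under 0.05, beside 4.97% lower and 4.23% higher over all events. The median log2 odds ratio over the 30 was -0.14, beside 0.04 over all events. A 36-base exon of Apba2, an adaptor that also binds the App tail (chromosome 7, 64734655 to 64734690), had 33.3% and 31.2% in KCl, against 74.0% and 74.4% in control (log2 odds ratio -2.59, SE 0.76; edgeR adjusted p 0.209). A 150-base exon of Picalm, a clathrin adaptor of endocytosis, had 63.2% and 79.9% in KCl, against 96.5% and 93.6% in control (log2 odds ratio -2.84, SE 0.71; edgeR adjusted p 0.144). A 63-base exon of Apbb2, the Fe65 relative, had 21.4% and 21.2% in KCl, against 83.3% and 56.2% in control, on 14 to 33 reads (edgeR adjusted p 0.313).

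The same list gave 20 gene levels, of which 0 passed; the median log2 fold change was -0.03, beside 0.04 over all genes. Bace2, a secretase that cuts App, stood at 214 and 185 CPM in KCl, against 61.3 and 80.5 CPM in control (log2 fold change 1.49, SE 0.42; edgeR adjusted p 0.352). Apba1, a neuronal adaptor of App, stood at 3.42 and 18.7 CPM in KCl, against 45.3 and 44.5 CPM in control (log2 fold change -1.99, SE 0.73). Apoe, the lipid carrier that astrocytes secrete, stood at 42710 and 18380 CPM in KCl, against 13800 and 8971 CPM in control (log2 fold change 1.42, SE 0.54). Apba1 was lowest in KCl replicate 1 and next lowest in KCl replicate 2.

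Of 10 further genes of the agrin pathway, 3 had 6 tested events, with 0 passing and 0 at an unadjusted p under 0.05 in edgeR. A 135-base exon of Dag1, which codes for the agrin receptor dystroglycan, was included in 1.28% and 0.862% of reads in KCl, against 2.94% and 6.74% in control (edgeR adjusted p 0.548). An alternative 3′ splice site of Hspg2 had 99.2% and 96.4% in KCl on 119 and 165 reads, against 100% and 100% in control on only 11 and 52 reads (SE of the log2 odds ratio 1.79; edgeR adjusted p 0.759). In level, Hspg2, the proteoglycan perlecan, had 81.5 and 93.4 CPM in KCl, against 7.66 and 27.9 CPM in control (log2 fold change 2.27, SE 0.64; edgeR adjusted p 0.352).

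Of 34 further genes of the reelin pathway, 22 had 55 tested events; 0 passed edgeR's test, and 1 was lower and 4 were higher at an unadjusted p under 0.05, beside the same 4.97% and 4.23%. The median log2 odds ratio was 0.16. A 142-base exon of Itga3, an integrin subunit, had 100% and 96.1% in KCl, against 70.5% and 80.2% in control (log2 odds ratio 3.84, SE 0.99; edgeR adjusted p 0.146). A 110-base exon of Dlg4, the postsynaptic scaffold PSD-95, had 92.6% and 92.7% in KCl, against 98.8% and 97.7% in control (log2 odds ratio -2.15, SE 0.72; edgeR adjusted p 0.306). A 102-base exon of Pafah1b1, the lissencephaly gene, had 100% and 100% in KCl on 781 and 798 reads, against 99.7% and 99.6% in control on 1188 and 1308 reads. Its log2 odds ratio of 4.41 (SE 1.745; edgeR adjusted p 0.438) thus rests on few skipping reads. Among 23 gene levels of this list 0 passed, and the median log2 fold change was 0.01. Dlg4 had 129 and 256 CPM in KCl, against 504 and 582 CPM in control (log2 fold change -1.50, SE 0.47). Yes1, a kinase of the Src family, had 93.8 and 78.7 CPM in KCl, against 31.4 and 44.5 CPM in control (log2 fold change 1.18, SE 0.44). Nde1, a dynein regulator, had 320 and 238 CPM in KCl, against 135 and 143 CPM in control (log2 fold change 1.01, SE 0.40).

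Over the bodies of the 6 genes H3K9me3 in hippocampus was near or below that of the typical gene. Coverage was averaged over each gene and divided by the library's median over 19281 protein-coding genes of the autosomes, with no test, since the home cage has 1 library. App had 0.947 and 1.03 in the enriched libraries, against 0.961 in the home cage. Dab1, the longest of the 6, had 1.02 and 1.01 in the enriched libraries, against 1.01 in the home cage, on 4837, 3371 and 2253 fragments. Values for these genes thus lay within 0.1 of each other in all 3 libraries. Lrp8 had 0.780 and 1.04, against 0.797 in the home cage, and Agrn had 0.704 and 1.01, against 0.897. Aplp2 had 0.872 and 0.969, against 0.704 in the home cage, and Apbb1 had 0.863 and 0.688, against 0.903. For Agrn and Lrp8 the enriched libraries lay on both sides of the home cage, and for Aplp2 the 95% Poisson interval of the home cage (0.564 to 0.869, on 87 fragments) overlapped those of both enriched libraries (0.762 to 0.992 and 0.833 to 1.12).

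**Figure D5:**
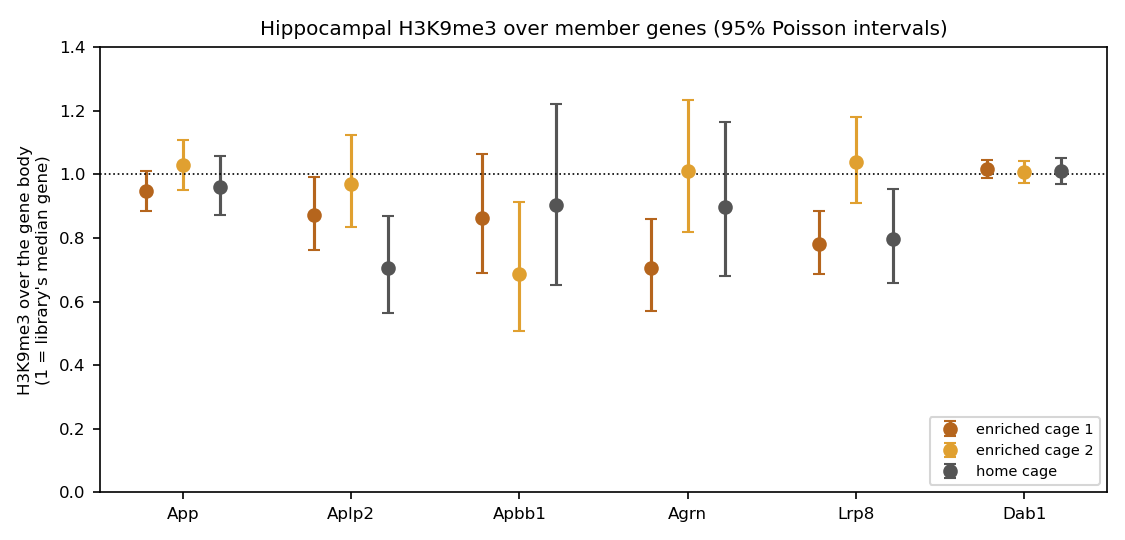
H3K9me3 coverage over the body of each gene relative to the median gene of the library (dotted line at 1), with 95% Poisson intervals of the fragments; enriched libraries are brown and yellow and the home cage grey. The values of the 6 genes lie between 0.688 and 1.04.

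Gene starts were taken from RefSeq's promoter windows, and where a gene has several, the start nearest the outer end of the gene was used; for App that is position 85173707, inside the outer end of the gene. Within 2 kb of this start, App had 1.07 and 0.844 times the median gene start in the enriched libraries, against 0.955 in the home cage. Aplp2 had 0.911 and 0.759 in the enriched libraries, against 0.677 in the home cage. Start values rested on 2 to 18 fragments over all 6 genes and 3 libraries. Dab1 had 0.850 and 0.928 in the enriched libraries, against 1.89 in the home cage, and the 95% Poisson interval of the home cage (1.03 to 3.18) overlapped those of both enriched libraries (0.465 to 1.43 and 0.463 to 1.66). Apbb1 had 0.781 and 0.606, against 0.250 in the home cage on 2 fragments, Agrn had 0.581 and 0.675, against 0.405, and Lrp8 had 0.668 and 0.675, against 0.539. Both enriched libraries were thus lower than the home cage for Dab1 and higher for Aplp2, Apbb1, Agrn and Lrp8, in each case within overlapping intervals. For App they lay on both sides of it. How many of all genes show either order was not counted. The 250 bases upstream of the App and Aplp2 starts are shown because the start values of these relatives were measured around them. The sequences are from RefSeq on GRCm38.p6, each on the gene's own strand (minus for both), with GC boxes (GGGCGG, either strand) in capitals. App stands at chr16:85173708-85173957 and Aplp2 at chr9:31211849-31212098.
App: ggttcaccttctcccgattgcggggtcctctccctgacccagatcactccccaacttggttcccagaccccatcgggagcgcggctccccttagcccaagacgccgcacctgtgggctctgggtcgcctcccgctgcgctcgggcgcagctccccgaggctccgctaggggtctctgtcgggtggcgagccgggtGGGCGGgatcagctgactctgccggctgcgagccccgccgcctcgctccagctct
Aplp2: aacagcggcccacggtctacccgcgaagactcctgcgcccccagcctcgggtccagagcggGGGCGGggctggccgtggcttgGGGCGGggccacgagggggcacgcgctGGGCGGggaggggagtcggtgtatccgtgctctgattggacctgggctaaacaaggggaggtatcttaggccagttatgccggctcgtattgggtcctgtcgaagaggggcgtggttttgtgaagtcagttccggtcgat
The App window holds 1 GC box and 23 CpG and the Aplp2 window 3 GC boxes and 22 CpG, where the median of 32851 promoters is 6 CpG. A GC box lies in 32.7% of these promoters. Neither window holds the TATA box letters TATAAA, found in 12.4% of promoters, or the cyclic AMP response element TGACGTCA, found in 1.55%, on either strand, which says only that these letters are absent from the windows.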

How the data were processed

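The authors deposited whole-number counts of inclusion and skipping reads per splicing event for each RNA library, per the file headers, with p-values and FDRs of a KCl-to-control test run separately in replicates 1 and 2. ChIP signal tracks were deposited as coverage, in values that are whole multiples of 1 step. CASAVA 1.7, BWA 0.7.12, MACS2, TopHat2 and mm10 are named without roles in the submitters' processing notes; for the event counter, its annotation and its strand setting, a name is not given in the sources used here. A further 2 count columns could not be tied to a sample by name and were not used.

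Starts were converted to count from 1. Events with coordinates occurring once in each table (11814) entered, if inclusion and skipping reads each averaged 1 or more, a single quasi-likelihood fit in edgeR 4.0.16 under R 4.3.3, whose terms were library, form and the interaction of form with KCl. Gene levels used the best-covered event, TMM scaling and edgeR with intercept and KCl. Benjamini-Hochberg adjustment and a threshold of 0.05 were used. DESeq2 1.42.0, limma 3.58.1 (pseudocount 0.5), a replicate block, other filters and scalings, summed rows and leaving out each library were run as alternatives. Gene bodies of at least 1000 bases came from RefSeq GRCm38.p6, the build mm10; fragments are the coverage divided by its step and by the fragment length (207, 238 and 285 bases in enriched replicate 1, enriched replicate 2 and the home cage).

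The members and gene lists were chosen with earlier results of these data known. Named are all members, and from each pathway list up to 3 events and levels with the smallest p whose groups do not overlap; 1 gene of these is not reported here. Exon sequences were not analysed here. Figures were drawn with matplotlib 3.10.9 (Python 3.11.15, with pandas 2.3.3, numpy 2.4.6 and scipy 1.17.1).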

Additional observations from a re-analysis of the deposited data

How the results depend on the processing

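A replicate block raised edgeR's calls to 167 events (1.66%) and 1240 gene levels, against 0 of each without it; the called events hold 1 of the 19 member events, the App exon (log2 odds ratio -3.07, adjusted p 0.00111), and the called levels hold App (log2 fold change -1.12, adjusted p 0.0112). What libraries of 1 number share is not labelled, and there are only 2 pairs; deviations of same-numbered libraries correlated at 0.0573 in splicing and 0.61 in gene levels. DESeq2 called 55 gene levels. Leaving out 1 library, edgeR called 0 events each time and 0 to 298 gene levels (298 with KCl replicate 2 left out, 20 with control replicate 2 and 3 with KCl replicate 1). The lone library of a group is then assumed to vary like the other group. Member events at an unadjusted p under 0.05 numbered 2, against 4 with the block, 4 of 13 with a minimum mean of 5 reads, 1 in DESeq2, 1 in limma and 1 to 4 without single libraries (1 without KCl replicate 1 or control replicate 2, 4 without KCl replicate 2). The log2 odds ratio of the App exon stayed negative in every setting run, from -3.54 to -2.63 without single libraries, with adjusted p from 0.302 to 0.878 there. Of 184 values of single member events under alternatives, 8 changed sign, all of them without single libraries and in events whose groups overlap, where the range was -0.051 to 0.21 for the 87-base and -0.63 to 1.22 for the 225-base exon of Agrn, -0.19 to 1.50 for the 13-base exon of Apbb1, -0.72 to 0.88 for the retained-intron event of Dab1 and -0.011 to 0.53 for the 381-base exon of Lrp8. Gene levels changed sign for Apbb1 (-1.02 to 0.88 without single libraries) and for Lrp8 (-0.22 to 0.18). The Lrp8 level also did so with median-of-ratios size factors (-0.0043), in DESeq2 (-0.0043) and with all events summed (-0.067). The cause was not tested. The median H3K9me3 of the 6 genes was taken within each enriched library and averaged over these libraries. It was 0.938, against 0.766 at gene starts and 0.83 scaled by the autosome mean. Few reads of 1 form limit the Dab1 retained-intron event and the 24-base and 128-base exons of Agrn, among others. Leaving out single libraries also moved, by over 1.5 times, the short Aplp2 exon (-0.75 without KCl replicate 1), the 123-base Lrp8 exon (-0.38 without control replicate 1), the 128-base Agrn exon (0.36 to 5.28) and the levels of Dab1 (-1.17 to -0.19) and Agrn (0.26 to 0.87), among others.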
